A study of Homo sapiens with 6 samples.

Results

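Kinesins are motor proteins that use ATP to move along or act on microtubules. The genes were chosen by name: protein-coding genes whose symbol begins with KIF and a digit, plus KIFC1, KIFC2, KIFC3 and the kinesin light chain genes KLC1, KLC2 and KLC4. This gave 45 of the 58219 genes in the count tables. By their known roles 14 were grouped as mitotic kinesins, 18 as transport kinesins and 13 as other kinesins. The 6 libraries hold polyA RNA of SNU-449 cells, a human cell line established from a hepatocellular carcinoma. The 3 Yes T348I libraries came from a stable line expressing Yes T348I, the tyrosine kinase Yes with a change of its gatekeeper residue, and the 3 Yes WT libraries from a stable line expressing wild-type Yes. Cells of both groups had been given dasatinib, a SRC family and ABL kinase inhibitor, at 100 nM, and untreated cells were not analysed here. The labels name 1 line per group and do not say whether a line is a clone or a pool, so the Yes variant and other differences between the lines cannot be told apart. They do not say either whether libraries of a group were separate cultures, so the p-values reflect how much these libraries vary, and that variation may be technical.

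Most kinesins share a motor domain that binds ATP and microtubules and differ in their tails. Mitotic kinesins slide, shorten or cross-link spindle microtubules, move chromosomes and build the midzone for cytokinesis, and their transcripts are known to peak in G2 and mitosis. Transport kinesins carry vesicles, mitochondria and other cargo, mostly towards the cell edge, and several were first studied in neurons. Some of the other kinesins act in cilia or on microtubule dynamics at the cortex. The promoters of many mitotic genes hold a CHR (cell cycle genes homology region), bound by the DREAM and MuvB complexes, and CCAAT boxes, bound by NF-Y.

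Library totals ranged from 14360137 to 19608763 counts, with Yes T348I replicate 1 the deepest. Reads on no annotated exon made up 6.37% to 6.86% of uniquely mapped reads in Yes T348I and 7.40% to 7.87% in Yes WT. YES1 counts, which cannot tell the native from the introduced gene or show the mutation, averaged 409 CPM (counts scaled to library size) in Yes T348I and 364 CPM in Yes WT, a log2 difference of 0.17 (SE 0.04, edgeR adjusted p = 9.9e-05). Although the cells are of liver origin, 6 of 10 hepatocyte markers were too low to test: APOB, TTR and APOA1 stayed at or under 2 counts per library and ALB at or under 10. The 10 summed to 99.6 to 103 CPM in Yes T348I and 116 to 119 CPM in Yes WT, nearly all FGB and CPS1. Of the leukocyte and endothelial markers, CD3E, MS4A1, TEK and CLDN5 had no count in any library, and the 10 leukocyte markers summed to 1.48 to 2.87 CPM in Yes T348I and 3.11 to 4.34 CPM in Yes WT. The 8 endothelial markers summed to 0.617 to 0.667 CPM in Yes T348I and 1.27 to 1.53 CPM in Yes WT. The 9 stellate cell and fibroblast markers summed to 876 to 930 CPM in Yes T348I and 1179 to 1245 CPM in Yes WT, most of it COL1A2. They did not move one way. COL1A2, COL3A1 and ACTA2 fell (log2 fold changes -0.63, -0.76 and -0.56), COL1A1 and RGS5 rose by 0.15 and 0.14, and LRAT did not pass. The part of these markers in the kinesin values was not tested.

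Promoter sequences are shown for 5 members, to let the mitotic rises of lowest adjusted p (KIF23, KIF18B and KIF11) be set beside the mitotic kinesin that did not pass the test (KIF20A) and the transport kinesin of lowest adjusted p (KIF1C). Each runs from 150 bases before to 30 bases after the RefSeq start (GRCh38.p14). Capitals mark the letters of 3 motifs on either strand: TTTGAA for the CHR, CCAAT for the CCAAT box and TTCCCGC for an E2F site. A capital run in another spelling is the reverse complement of its motif. RefSeq starts are not always those of the GENCODE genes whose positions are given below.
KIF23, chr15:69414199-69414378, + strand: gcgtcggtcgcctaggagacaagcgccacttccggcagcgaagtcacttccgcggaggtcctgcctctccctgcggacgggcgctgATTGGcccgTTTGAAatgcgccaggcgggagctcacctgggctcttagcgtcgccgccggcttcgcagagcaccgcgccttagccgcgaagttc
KIF18B, chr17:44947744-44947923, - strand: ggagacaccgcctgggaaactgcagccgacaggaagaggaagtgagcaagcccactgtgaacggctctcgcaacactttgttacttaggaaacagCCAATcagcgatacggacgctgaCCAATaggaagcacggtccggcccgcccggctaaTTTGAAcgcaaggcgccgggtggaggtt
KIF11, chr10:92592980-92593159, + strand: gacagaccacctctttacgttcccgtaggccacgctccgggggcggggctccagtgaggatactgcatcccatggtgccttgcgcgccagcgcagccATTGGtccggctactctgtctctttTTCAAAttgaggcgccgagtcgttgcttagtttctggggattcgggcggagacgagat
KIF20A, chr5:138178962-138179141, + strand: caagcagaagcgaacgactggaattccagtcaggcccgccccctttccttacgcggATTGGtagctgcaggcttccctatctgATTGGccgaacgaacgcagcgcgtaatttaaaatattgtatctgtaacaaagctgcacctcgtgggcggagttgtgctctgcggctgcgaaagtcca
KIF1C, chr17:4997800-4997979, + strand: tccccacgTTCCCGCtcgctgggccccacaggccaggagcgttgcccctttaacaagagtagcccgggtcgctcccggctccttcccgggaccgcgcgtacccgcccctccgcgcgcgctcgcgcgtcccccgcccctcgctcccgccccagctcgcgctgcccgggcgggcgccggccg

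Of the 45 kinesin genes, 39 passed the filter on low counts and were tested. Between Yes T348I and Yes WT, 15 rose and 9 fell with an edgeR adjusted p under 0.05, and 15 did not pass. Over all 14723 genes tested, 28.0% were called higher and 27.3% lower. The shares among kinesins were 38.5% higher and 23.1% lower, and the classes differed in what they held. Of 12 tested mitotic kinesins 11 rose and none fell, and their median was 0.23 on the log2 scale. Of 17 tested transport kinesins 3 rose and 6 fell, with a median of -0.07 (0.003 without Yes T348I replicate 1). Of 10 tested other kinesins 1 rose and 3 fell, with a median of -0.01. The median over all tested genes was -0.01. Better expressed genes were called more often: among the 6509 genes with a mean of at least 30 CPM, which includes every tested mitotic kinesin, 45.3% were called higher and 25.2% lower, with a median of 0.07. The mitotic median exceeded the transport median by 0.30 on the log2 scale. The members share libraries and are not replicates, so no test was made of this difference between classes.

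**Figure D1:**
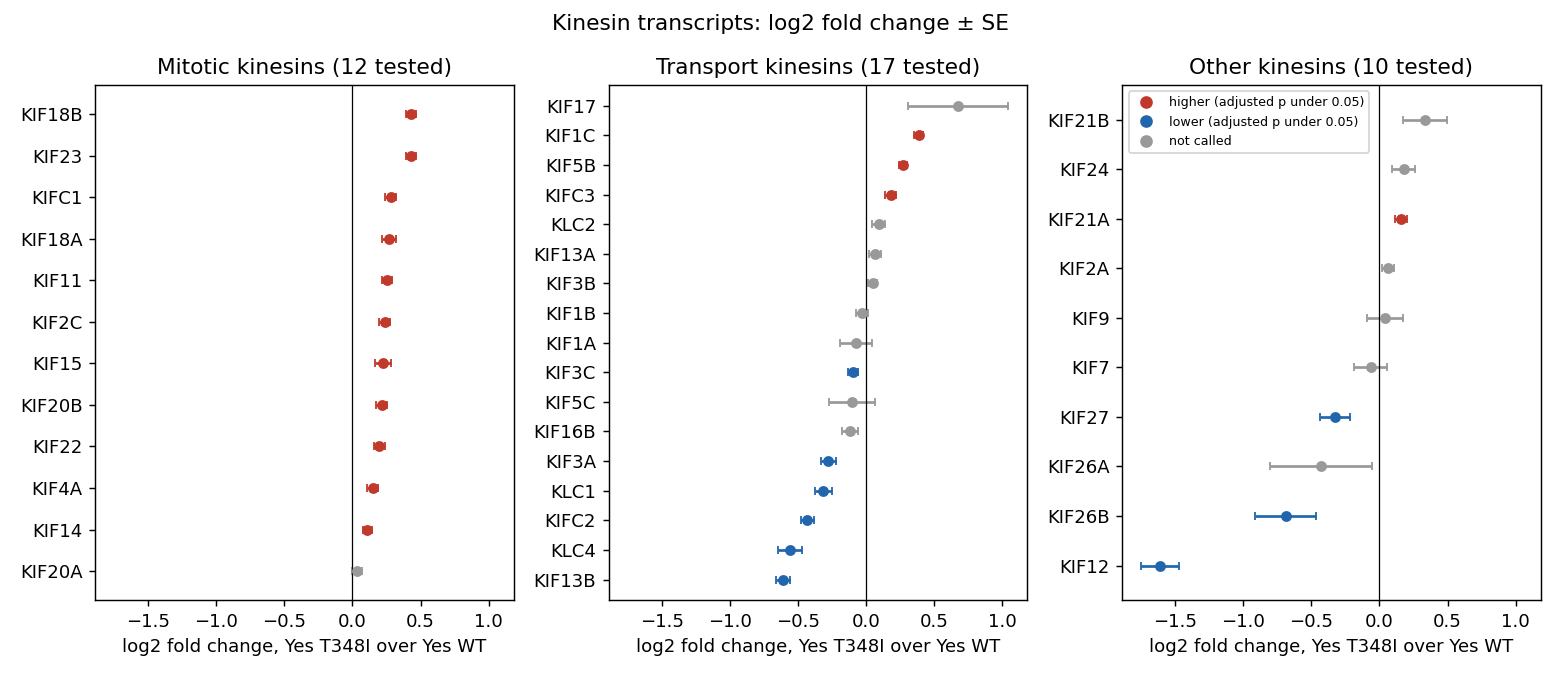
Log2 fold change of each tested kinesin transcript, Yes T348I over Yes WT (x axis), with its SE, in 12 mitotic, 17 transport and 10 other kinesins; red and blue points passed an edgeR adjusted p under 0.05. The mitotic kinesins all lie right of 0, from 0.03 (KIF20A) to 0.43 (KIF18B), and the other classes lie on both sides.

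Summed over the 14 mitotic kinesins, the level was 1470, 1533 and 1485 CPM in the Yes T348I libraries and 1282, 1266 and 1279 CPM in the Yes WT libraries. The sum over the 18 transport kinesins was 1794, 1795 and 1798 CPM in Yes T348I and 1681, 1629 and 1661 CPM in Yes WT. Both sums were thus higher in each Yes T348I library than in any Yes WT library, although more transport kinesins fell than rose. KIF5B alone gave a mean of 678 CPM of the transport sum in Yes T348I and 561 CPM in Yes WT, and it rose. In bulk RNA, more cells in G2 and mitosis and more RNA of a gene per cell cannot be told apart. The 13 other kinesins summed to 195 to 204 CPM in Yes T348I and 193 to 197 CPM in Yes WT, and these ranges overlapped.

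The bipolar spindle depends on motors that push and pull on its poles. KIF11 (Eg5; ENSG00000138160.5, chromosome 10, 92593286 to 92655395), which slides antiparallel microtubules apart, had 211, 221 and 204 CPM in Yes T348I and 179, 173 and 180.4 CPM in Yes WT. All Yes T348I values lay above all Yes WT values, as they did in 59.5% of all tested genes in one direction or the other. KIF11 rose by 0.26 on the log2 scale (SE 0.04, edgeR adjusted p = 6.1e-08). KIF15, which supports bipolarity beside KIF11, had 38.5, 41.6 and 41.7 CPM in Yes T348I and 35.4, 34.3 and 34.1 CPM in Yes WT, a rise of 0.22 (SE 0.06, adjusted p = 6.95e-04). KIFC1 (HSET; ENSG00000237649.7, chromosome 6, 33391536 to 33409924), a minus-end motor that focuses poles and clusters extra centrosomes, had 109, 108 and 104 CPM in Yes T348I and 85.5, 88.3 and 90.6 CPM in Yes WT. It rose by 0.28 (SE 0.04, adjusted p = 1.2e-07). The opposing motors KIF11 and KIFC1 were both higher, by similar log2 fold changes.

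Of the kinesins that shorten or cap microtubule ends, KIF18B, KIF18A and KIF2C rose. KIF18B (ENSG00000186185.13, chromosome 17, 44924709 to 44947711), which shortens astral microtubules, had 129, 128 and 133 CPM in Yes T348I and 94.5, 95.9 and 99.8 CPM in Yes WT. It rose by 0.43 (SE 0.04, adjusted p = 1.3e-12), as much as KIF23 did and more than the other 10 tested mitotic kinesins. Its relative KIF18A, which damps chromosome movements at metaphase, had 69.1, 74.3 and 72.4 CPM in Yes T348I and 56.7, 56.2 and 65.7 CPM in Yes WT (log2 fold change 0.27, SE 0.05, adjusted p = 1.5e-05). Yes WT replicate 3 was closer to the Yes T348I libraries for this gene, yet the groups did not overlap. KIF2C (MCAK), a depolymerase at centromeres, had 119.7, 118 and 117 CPM in Yes T348I and 103, 101 and 96.4 CPM in Yes WT, a rise of 0.24 (SE 0.04, adjusted p = 1.95e-06). KIF2A, its paralog at spindle poles and in neurons, was counted with the other kinesins and did not pass, at 78.5, 82.5 and 77.8 CPM in Yes T348I and 77.5, 75.0 and 76.1 CPM in Yes WT (log2 fold change 0.06, SE 0.04, adjusted p = 0.23).

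The cytokinesis motors were uneven. KIF23 (MKLP1; ENSG00000137807.13, chromosome 15, 69414246 to 69448427), the motor of the centralspindlin complex, had 152, 159 and 155 CPM in Yes T348I and 115, 114 and 117 CPM in Yes WT. The groups were far apart relative to their spread, and KIF23 rose by 0.43 (SE 0.04, adjusted p = 3.2e-13). KIF20B (MPP1) had 141, 161 and 153 CPM in Yes T348I and 136, 130 and 125 CPM in Yes WT (log2 fold change 0.21, SE 0.04, adjusted p = 2.9e-05). KIF14, which binds citron kinase and PRC1, had 171, 184 and 173 CPM in Yes T348I and 165, 162 and 162 CPM in Yes WT. It rose by only 0.11 (SE 0.04, adjusted p = 0.0089), and without Yes T348I replicate 2 it no longer passed (0.08, adjusted p = 0.056), nor with upper quartile or library size scaling. KIF20A (MKLP2; ENSG00000112984.11, chromosome 5, 138178719 to 138187715) carries the chromosomal passenger complex to the midzone. It had 155, 163 and 158 CPM in Yes T348I and 153, 156 and 155 CPM in Yes WT, and these ranges overlapped (log2 fold change 0.03, SE 0.04, adjusted p = 0.43). KIF20A was the only tested mitotic kinesin that did not pass, although per length it was the second most abundant of them in Yes T348I and the most abundant in Yes WT.

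Of the chromokinesins, which bind chromosome arms, KIF22 (Kid) rose by 0.20 (SE 0.04, adjusted p = 9.2e-05) and KIF4A by 0.15 (SE 0.04, adjusted p = 0.0032). KIF4A had 90.3, 89.9 and 88.6 CPM in Yes T348I and 85.6, 79.3 and 77.5 CPM in Yes WT. Its intronless copy KIF4B had 3 to 7 counts per library in Yes T348I and 5 to 8 in Yes WT and was not tested. Reads mapping to several places are a separate line of the deposited tables and count for no gene, so the levels of this pair are uncertain. KIF2B had no count in any library.

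**Figure D2:**
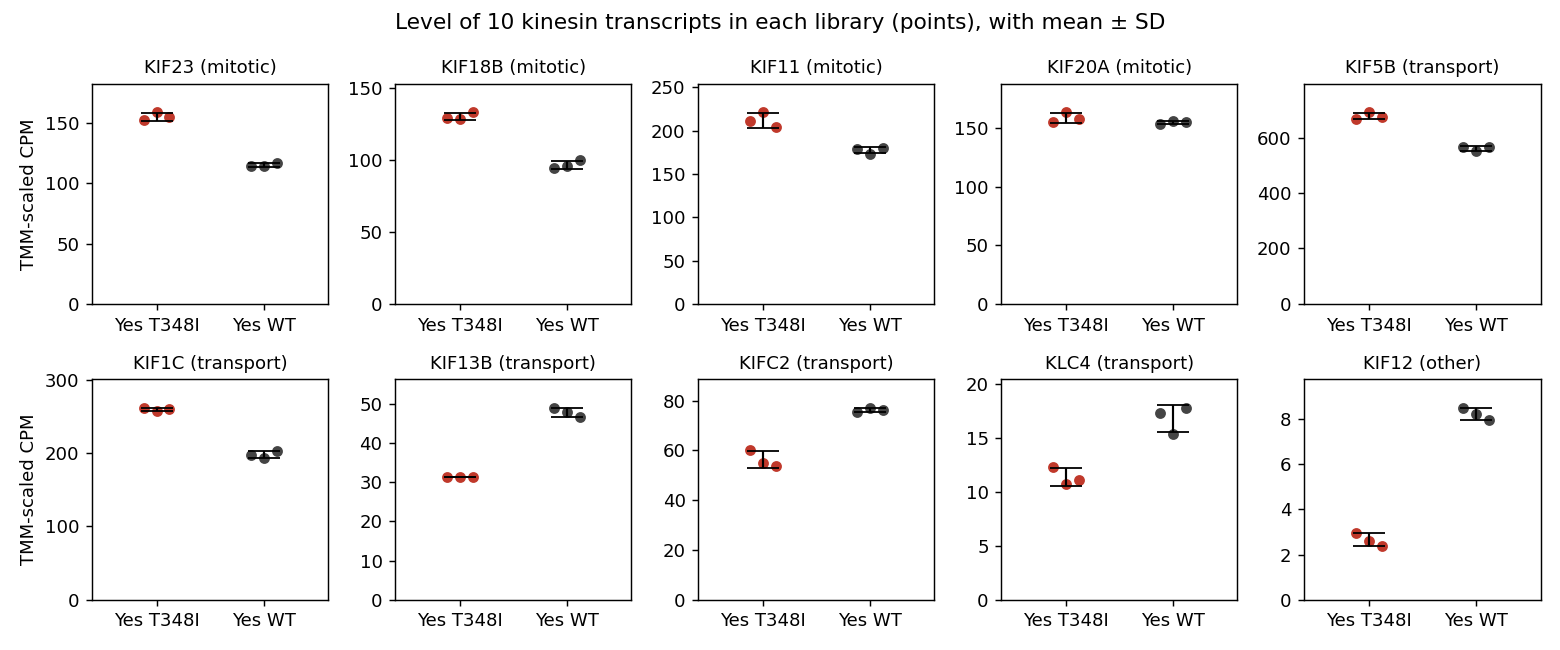
TMM-scaled CPM (y axis, from 0) of 10 kinesin transcripts in the 3 Yes T348I and 3 Yes WT libraries, as points with mean ± SD. KIF23, KIF18B, KIF11, KIF5B and KIF1C are higher and KIF13B, KIFC2, KLC4 and KIF12 lower in every Yes T348I library, and the KIF20A ranges overlap.

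Kinesin-1, a dimer of heavy chains with cargo-binding light chains, split between its subunits. KIF5B (ENSG00000170759.10, chromosome 10, 32009010 to 32056431), the heavy chain found in most tissues, had 668, 691 and 675 CPM in Yes T348I and 566, 549.9 and 567 CPM in Yes WT. It rose by 0.27 (SE 0.03, adjusted p = 8.7e-10). The light chain gene KLC4 had 12.3, 10.7 and 11.1 CPM in Yes T348I and 17.3, 15.4 and 17.8 CPM in Yes WT, a fall of 0.56 on the log2 scale (log2 fold change -0.56, SE 0.09, adjusted p = 7.1e-07). KLC1 had 26.7, 23.3 and 26.5 CPM in Yes T348I and 31.4, 30.5 and 33.4 CPM in Yes WT (log2 fold change -0.31, SE 0.06, adjusted p = 6.8e-05). Both light chains were lower in every Yes T348I library. KLC1 shares exon bases with another annotated gene on its strand, AL139300.1, so reads there are uncertain, as they are for KIF2A with IPO11 and KIF1B with RN7SL731P. KLC2, the best expressed of the 3, did not pass (log2 fold change 0.09, SE 0.05, adjusted p = 0.091), though it did without Yes T348I replicate 2 (0.11, adjusted p = 0.0495) and with unstranded counts. Of the heavy chains best known from neurons, KIF5C was at 3.70 to 4.58 CPM in Yes T348I and 2.94 to 5.54 CPM in Yes WT and did not pass (log2 fold change -0.11, SE 0.17), and KIF5A reached no more than 5 counts in a library.

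Kinesin-3 motors moved in both directions. KIF1C (ENSG00000129250.11, chromosome 17, 4997948 to 5028401), a vesicle and integrin transporter, had 261, 257 and 259.8 CPM in Yes T348I and 198, 194 and 203 CPM in Yes WT. Its rise of 0.39 (SE 0.03, adjusted p = 2.7e-13) had the lowest adjusted p of all 39 tested kinesins. KIF13B (ENSG00000197892.12, chromosome 8, 29067279 to 29263124), a vesicle motor that binds the scaffold protein DLG1, had 31.3, 31.3 and 31.4 CPM in Yes T348I and 48.9, 47.8 and 46.6 CPM in Yes WT. It fell by 0.61 on the log2 scale (log2 fold change -0.61, SE 0.05, adjusted p = 6.6e-13), the lowest value among the transport kinesins. DLG1 itself rose by 0.49 (SE 0.04, adjusted p = 2.3e-14). KIF13A, an endosome motor, was at 86.1, 90.5 and 93.2 CPM in Yes T348I and 87.5, 83.9 and 85.8 CPM in Yes WT and did not pass (log2 fold change 0.07, adjusted p = 0.19), but did without Yes T348I replicate 1 (0.11, adjusted p = 0.037). KIF16B, a motor of early endosomes, did not pass (log2 fold change -0.12, SE 0.06, adjusted p = 0.093) and did without Yes T348I replicate 2 (-0.14, adjusted p = 0.049) and with upper quartile or library size scaling. KIF1B, a motor for mitochondria and vesicles, and KIF1A, a neuronal vesicle motor, had log2 fold changes of -0.03 and -0.07 and overlapping groups.

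Heterotrimeric kinesin-2 pairs KIF3A with KIF3B or KIF3C and drives transport in cilia. KIF3A had 35.6, 39.1 and 38.7 CPM in Yes T348I and 47.9, 44.1 and 44.6 CPM in Yes WT, and it fell (log2 fold change -0.28, SE 0.06, adjusted p = 4.2e-05). KIF3B did not pass, with 139 to 143 CPM in Yes T348I and 134 to 139 CPM in Yes WT (log2 fold change 0.05, SE 0.04, adjusted p = 0.27). KIF3C was lower by little (log2 fold change -0.09, SE 0.04, adjusted p = 0.033). It no longer passed without Yes WT replicate 1, 2 or 3 (adjusted p = 0.086, 0.077 and 0.066) or without Yes T348I replicate 3 (adjusted p = 0.24), nor by DESeq2 or with no filter on low counts. KIF17, a homodimeric kinesin-2, was at 0.69 to 1.13 CPM in Yes T348I and 0.27 to 0.73 CPM in Yes WT, with too few counts for a firm statement (log2 fold change 0.68, SE 0.37, adjusted p = 0.12).

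The minus-end motors KIFC2 and KIFC3 went opposite ways. KIFC2 (ENSG00000167702.11, chromosome 8, 144466043 to 144474202), known from neurons, had 60.1, 54.9 and 53.6 CPM in Yes T348I and 75.4, 77.0 and 76.0 CPM in Yes WT. It fell (log2 fold change -0.43, SE 0.05, adjusted p = 1.9e-10). KIFC3, which acts at adherens junctions, had 149.5, 130.4 and 143 CPM in Yes T348I and 131, 123 and 120.2 CPM in Yes WT. It rose by 0.18 (SE 0.04, adjusted p = 3.5e-04), although Yes T348I replicate 2 lay just below Yes WT replicate 1. The 9 neuron markers summed to 19.2 to 22.5 CPM in Yes T348I and 29.3 to 30.6 CPM in Yes WT, nearly all from MAP2, TUBB3 and SYP, while RBFOX3 and STMN2 stayed at or under 1 count. Their part in the KIFC2 value was not tested.

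Among the other kinesins KIF12 stood apart. KIF12 (ENSG00000136883.13, chromosome 9, 114086126 to 114099291), known from cholangiocyte and kidney epithelium, had 2.97, 2.61 and 2.40 CPM in Yes T348I and 8.49, 8.24 and 7.96 CPM in Yes WT. It fell (log2 fold change -1.61, SE 0.14, adjusted p = 4.5e-13), the largest change in either direction among the 39 tested kinesins. Markers of cholangiocytes did not move one way: KRT7 and SOX9 rose by 0.96 (SE 0.04) and 0.49 (SE 0.04), SPP1 had a log2 fold change of -0.98 (SE 0.03), KRT19 did not pass, and EPCAM and CFTR were at or near 0. Their 6 genes summed to 1278 to 1362 CPM in Yes T348I and 1505 to 1553 CPM in Yes WT, and their part in the KIF12 value was not tested. KIF21A, which restrains microtubule growth at the cortex, rose (71.7, 78.4 and 79.0 CPM in Yes T348I against 67.6, 69.3 and 67.8 CPM in Yes WT, log2 fold change 0.16, SE 0.05, adjusted p = 0.0031). KIF26B, an atypical kinesin, had 1.59, 1.51 and 1.55 CPM in Yes T348I and 3.24, 2.22 and 2.01 CPM in Yes WT. Its fall (log2 fold change -0.69, SE 0.23, adjusted p = 0.0091) rested on Yes WT replicate 1, without which it was -0.44 (adjusted p = 0.15). DESeq2 did not call it either. KIF27, a cilium kinesin, was lower (log2 fold change -0.33, SE 0.11, adjusted p = 0.010) but not called without Yes WT replicate 1 (-0.25, adjusted p = 0.092), by DESeq2 or with unstranded counts.

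The remaining tested members did not pass. KIF24, a centriolar depolymerase that restrains cilium formation, was at 14.2 to 15.4 CPM in Yes T348I and 12.6 to 13.1 CPM in Yes WT (log2 fold change 0.18, adjusted p = 0.070), and it just passed without Yes T348I replicate 1 (adjusted p = 0.04999) and with unstranded counts. KIF21B, which acts on microtubule dynamics in neurons and lymphocytes, was at 3.29 to 4.67 CPM in Yes T348I and 3.06 to 3.41 CPM in Yes WT (log2 fold change 0.33, SE 0.16, adjusted p = 0.083), and it passed without Yes T348I replicate 2 (0.46, adjusted p = 0.021). KIF7, a Hedgehog pathway regulator at the cilium tip, KIF9, known from motile cilia, and KIF26A, an atypical kinesin without ATPase activity, had adjusted p of 0.67, 0.80 and 0.35. KIF6 had at most 11 counts in a library, KIF25 had 1 count in 1 library and KIF19 had none, and these were not tested.

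Most of the changes were small in size. Against a minimum change of 1.2-fold, 7 kinesins passed edgeR's test: KIF23, KIF18B and KIF1C were higher, and KIF13B, KIFC2, KLC4 and KIF12 were lower. Over all tested genes 9.47% were higher and 12.5% lower by that rule.

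Per kilobase of annotated exon, KIF5B was the most abundant kinesin transcript, at a mean of 115 CPM per kilobase in Yes T348I and 95.4 in Yes WT. In Yes T348I KIF11 followed, with 43.6 in Yes T348I and 36.5 in Yes WT. KIF20A had 40.1 in Yes T348I and 39.1 in Yes WT, and KIF2C had 32.4 in Yes T348I and 27.5 in Yes WT, all in CPM per kilobase. The 10 next after KIF5B in Yes T348I, down to KIF20B, were 8 mitotic kinesins and the transport kinesins KIF1C and KIF3B. For genes with many alternative exons, such as KLC1 and KIF1B, this scale can understate the level, because all annotated exons count towards their length.

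**Figure D3:**
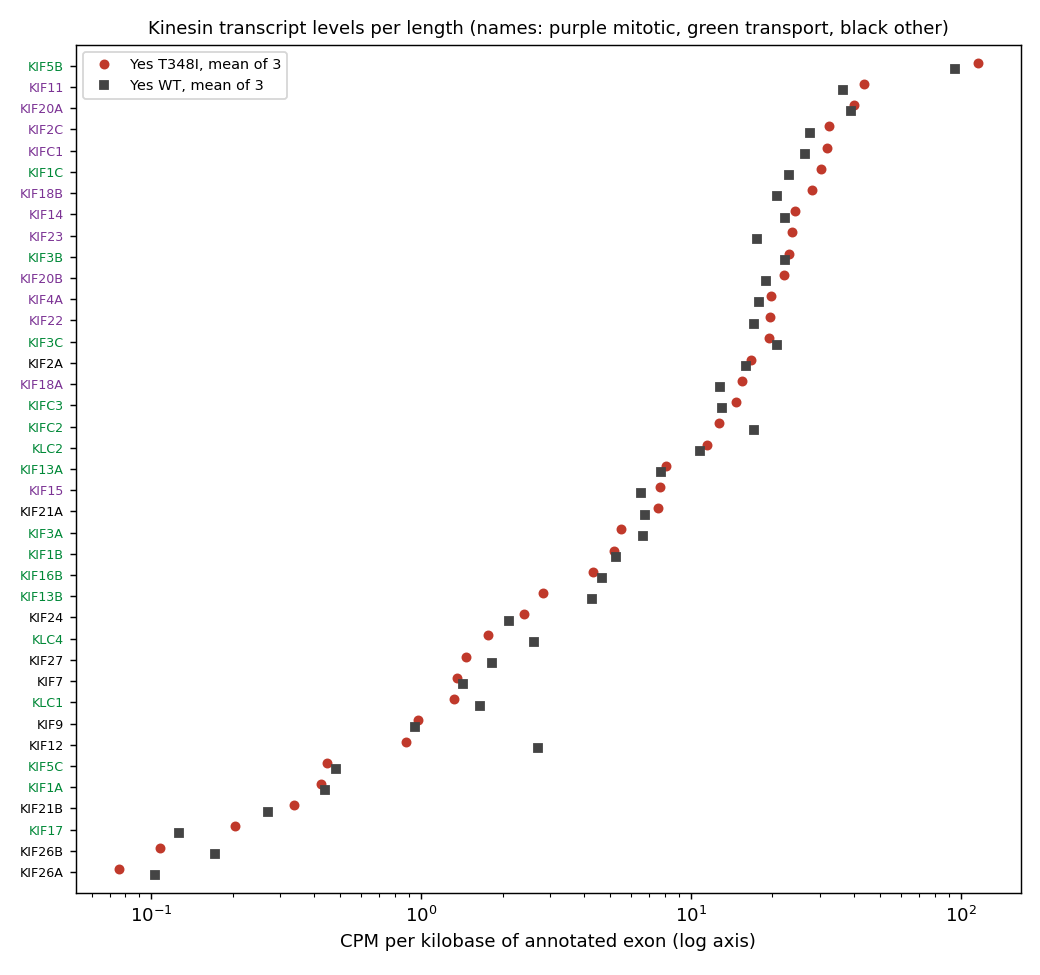
Mean level per kilobase of annotated exon (x axis, log scale, CPM per kilobase) of the 39 tested kinesins, ordered by Yes T348I; circles are Yes T348I and squares Yes WT. KIF5B lies far right at 115 in Yes T348I and 95.4 in Yes WT, and 12 of the members lie below 2 in Yes T348I.

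CHR and CCAAT letters were found in more of the mitotic than of the transport promoters that were searched. A RefSeq window of 300 bases (250 before to 50 from the start onwards) was searched for 31 of the 39 tested members. No window was at hand for KIFC3, KLC2, KLC4, KIF21B, KIF26B and KIF27. KIF13B and KIFC2 lie on chromosome 8, which was left out. The transport kinesins lower by the 1.2-fold test, KIF13B, KIFC2 and KLC4, were thus not searched. CHR letters stood in 9 of 12 mitotic kinesins (75%) and 1 of 12 transport kinesins (8.33%), against 13.8% of the 10784 tested genes with a window. CCAAT letters stood in 10 of 12 mitotic (83.3%) and 4 of 12 transport kinesins (33.3%), against 43.2% of tested genes. Both stood together in 8 mitotic kinesins (66.7%), against 5.76% of tested genes. The E2F letters were in none of the 12 mitotic and 2 of 12 transport windows, KIF1C and KIF17, against 12.6% of tested genes. Of the 7 other kinesins with a window none held CHR letters and 2 held CCAAT letters. These shares over all 27305 genes with a window were 18.2% for CHR, 39.7% for CCAAT and 7.82% for E2F letters.

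In the sequences shown above, the CHR letters of KIF23 begin 55 bases before the start, right behind a CCAAT box at 64 bases before it. In KIF11 they begin 28 bases before the start, behind a CCAAT box at 53, and in KIF18B they begin 2 bases downstream of the first transcribed base, behind CCAAT boxes at 55 and 32 bases before it. KIF20A, the mitotic kinesin that did not pass the test, holds CCAAT boxes at 94 and 67 bases before the start and no TTTGAA. KIF2C, which rose, holds none of the 3 motifs, and KIF22, which also rose, holds CCAAT letters without a CHR. Of the transport kinesins with a window, only KIF5B held CHR letters, 140 bases before the start. A match is a stretch of letters and not a shown binding site. Related CHR spellings were not searched, such as the tttaaa that can be read in the KIF20A sequence.

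Genes that work with the mitotic kinesins were also mostly higher. Of 21 partners tested 17 rose (81%) and 2 fell (9.52%), with a median log2 fold change of 0.30. Over all tested genes 28.0% were called higher and 27.3% lower, and among those of at least 30 CPM 45.3% and 25.2%. KIF23's partner in centralspindlin, RACGAP1, rose by 0.30 (SE 0.04, adjusted p = 3.0e-09). Of the passenger complex carried by KIF20A, AURKB rose by 0.57 (SE 0.05, adjusted p = 8.1e-14), as did CDCA8, BIRC5 and INCENP by 0.45, 0.36 and 0.13, while KIF20A itself did not pass. CEP55, which acts in abscission, and TPX2, which targets Aurora A and KIF11 to the spindle, rose by 0.48 (SE 0.03) and 0.38 (SE 0.03). NUMA1, a spindle pole protein, fell (log2 fold change -0.49, SE 0.03, adjusted p = 7.0e-16). MKI67, the proliferation marker Ki-67, was at 547 ± 38.6 CPM in Yes T348I and 515 ± 33.0 CPM in Yes WT (SD, n = 3 each) and did not pass edgeR's test (log2 fold change 0.09, adjusted p = 0.063). Of 21 cell cycle transcription factors 14 rose (66.7%) and 1 fell (4.76%), with a median of 0.25. MYBL2, TFDP1, E2F8 and E2F7 were higher by 0.46, 0.42, 0.76 and 0.58, and FOXM1 by 0.26 (SE 0.03, edgeR adjusted p = 2.2e-08).

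CENPE, a mitotic kinesin outside the naming rule, rose by 0.12 (SE 0.04, adjusted p = 0.023). KIFBP, which binds and inhibits several kinesins, rose by 0.16 (SE 0.04, adjusted p = 0.0016), KTN1, the kinesin-binding protein kinectin, by 0.09 (SE 0.03, adjusted p = 0.018), and KIFAP3, the cargo subunit of kinesin-2, fell (log2 fold change -0.16, SE 0.06, adjusted p = 0.028). Of 6 such genes 3 rose (50%) and 1 fell (16.7%), against 28.0% and 27.3% of all tested genes. Apart from KIFBP, the calls were near the threshold. Only 1 rise was called without Yes WT replicate 2, without Yes T348I replicate 2, or with upper quartile or library size scaling. No fall was called without Yes WT replicate 3, without Yes T348I replicate 1, by DESeq2 or with no filter on low counts.

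Of 27 adaptors and cargo linkers of transport kinesins 5 rose (18.5%) and 13 fell (48.1%), with a median log2 fold change of -0.10. Over all tested genes 28.0% were called higher and 27.3% lower. The falls numbered 8 without Yes WT replicate 3, 8 by DESeq2 and 7 with no filter on low counts. Besides DLG1, the vesicle GTPase gene RAB3B rose by 0.41 (SE 0.04), while the JNK scaffold MAPK8IP2 and MADD, an exchange factor that links RAB3 to kinesin-3, fell (log2 fold changes -0.66, SE 0.07, and -0.37, SE 0.05). Of 22 intraflagellar transport genes, the cargo system of kinesin-2, 3 rose (13.6%) and 9 fell (40.9%), with a median of -0.14. IFT27 had the lowest adjusted p (log2 fold change -0.79, SE 0.08, adjusted p = 9.1e-12), then WDR19 (-0.40, SE 0.06), and IFT57 rose by 0.33 (SE 0.05). Cytoplasmic dynein and dynactin, the motor complex that moves the other way, had 7 of 23 genes higher (30.4%) and 5 lower (21.7%), near the 28.0% and 27.3% over all tested genes (median 0.00). Its heavy chain DYNC1H1 was lower (log2 fold change -0.25, SE 0.04, adjusted p = 4.7e-07) and its light chain DYNLL1 higher by 0.27 (SE 0.04).

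The tracks of all these motors are polymers of alpha and beta tubulin. Of 11 tubulin genes tested 7 rose (63.6%) and 3 fell (27.3%), with a median log2 fold change of 0.55. The shares over all tested genes were 28.0% higher and 27.3% lower, and 45.3% and 25.2% among genes of at least 30 CPM. TUBA1C had 533 ± 18.7 CPM in Yes T348I and 324 ± 11.2 CPM in Yes WT (SD, n = 3 each), and TUBA1B, TUBB4B and TUBB6 rose by 0.65, 0.62 and 0.55. TUBB3, the beta tubulin typical of neurons and also among the neuron markers, fell (log2 fold change -0.52, SE 0.11, adjusted p = 6.8e-05). Several tubulin genes have close copies and pseudogenes, and their values are uncertain to that degree.

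**Figure D4:**
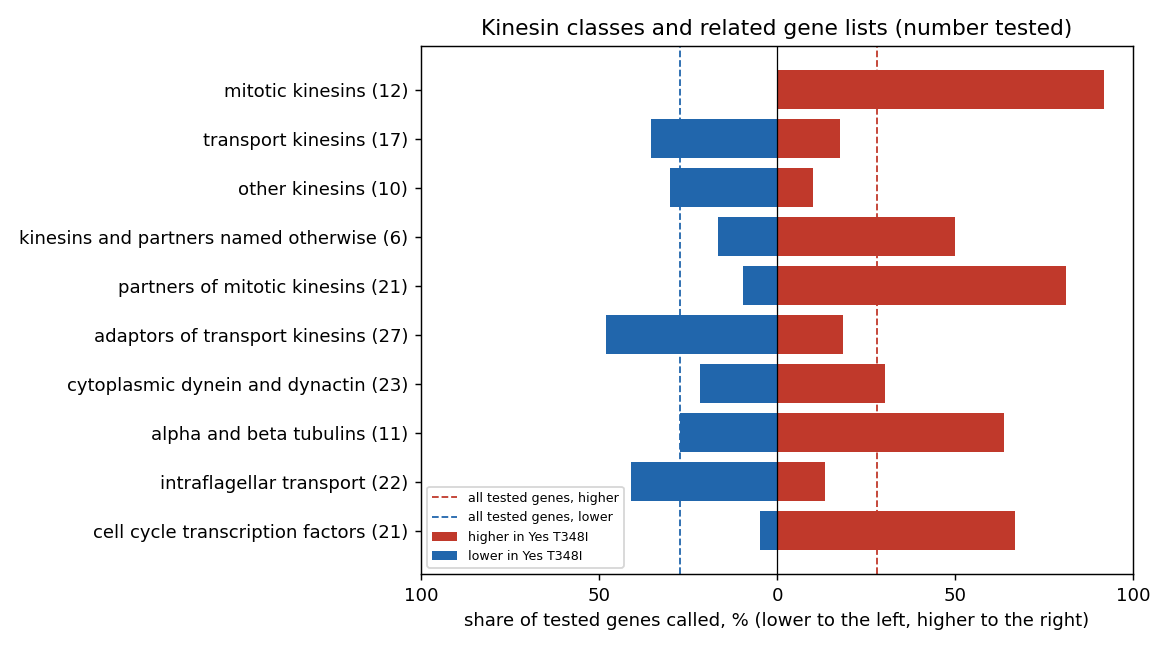
Share of the tested genes of each kinesin class and related list that were called lower (left) or higher (right) in Yes T348I over Yes WT at an edgeR adjusted p under 0.05; dashed lines give the shares over all tested genes, 28.0% higher and 27.3% lower. Mitotic kinesins and their partners extend to the right and transport adaptors and intraflagellar transport genes to the left.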

How the data were processed

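Libraries were polyA-selected and stranded, per the labels' protocols. The authors deposited raw counts of reads per gene for each library. Named in the submitters' processing notes, without roles, are STAR 2.5.1b, Trimmomatic 0.35, CASAVA 1.8.2 and the GRCh38 build. For the annotation release, the sources used here give no name. Counts on the reverse strand were taken, because those on the forward strand came to only 6.13% to 6.59% of them. Reads that fit several genes made up 3.11% to 3.15% of uniquely mapped reads. Neither these nor other summary lines entered library sizes or tests.

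Symbols were matched for 57437 of 58219 identifiers without their version. Biotypes, positions and exon lengths came from GENCODE release 29, and promoter windows from RefSeq (GRCh38.p14), leaving out chromosome 8. RefSeq and GENCODE starts can differ. The test was edgeR 4.0.16 under R 4.3.3 (filterByExpr with a minimum count of 10, TMM scaling, quasi-likelihood F-test, Benjamini-Hochberg adjustment over 14723 genes, threshold 0.05). The 1.2-fold test was glmTreat. CPM values were computed with TMM factors. The fit was checked on simulated data. All pairs of libraries within a group differed by more than counting noise (chi-square per degree of freedom 1.48 to 5.21). The coefficient of variation between replicates was 2.83%, so small changes passed.

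Alternatives used other scalings, no filter on low counts, DESeq2 1.42.0, limma-voom (limma 3.58.1), a replicate block, unstranded counts and each library left out. Class members and gene lists were chosen by known roles, with earlier results of these data known, as was the 30 CPM level. Members were named by class, with values per library for the 6 of lowest adjusted p and for members that moved against their class, some others being added after their values were seen, and of each list mostly those of lowest adjusted p.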

Additional observations from a re-analysis of the deposited data

How the results depend on the processing

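Under 14 alternatives other than the minimum change, 523 of 546 values of single kinesin genes kept their side of the threshold. Of the rest, 14 no longer passed and 9 newly passed, in 9 of 39 genes in all, and none reversed a call. Among the 523, some values of uncalled genes changed sign, such as KIF20A (0.034, but -0.006 with upper quartile scaling). Against a minimum change of 1.2-fold, 17 of the 24 called kinesins no longer passed, because that test asks for more than a difference. It left 3 kinesins higher and 4 lower, with 2 mitotic kinesins higher, 1 transport kinesin higher and 3 lower, and 0 other kinesins higher and 1 lower.

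The median of mitotic kinesins moved to 0.19 with upper quartile scaling, and leaving out single libraries moved it between 0.213 and 0.271. The median of transport kinesins ranged from -0.074 to 0.003 when single libraries were left out, changing sign without Yes T348I replicate 1, so its distance from 0 is within that range. It was -0.111 with upper quartile scaling and -0.107 with library size only. The median over all tested genes was then -0.053 and -0.050. The mitotic minus transport median ranged from 0.244 to 0.324 under the 14 alternatives that give one. KIF14 was not called with upper quartile factors (adjusted p = 0.098) or library size only (adjusted p = 0.085). Among other kinesins, 2 were higher with unstranded counts and 1 was lower by DESeq2, and leaving out single libraries gave 1 to 2 higher and 1 to 3 lower. With the replicate block, 11 mitotic kinesins were higher and the mitotic median was 0.231. The block changed no call of a kinesin gene. Same-numbered libraries did not deviate together (correlations across genes of -0.028, 0.001 and -0.019), so the numbers were not taken as pairs. Genes under about 1 CPM rest on few counts and their SE are wide.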
